A study of Mus musculus with 2 samples.

Results

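Chromatin accessibility was examined around 10 mouse genes that regulate globin switching and late red cell development: Klf1, Nfe2, Bcl11a, Zbtb7a, Sox6, Myb, Chd4, Mbd2, Foxo3 and Gfi1b. The measurement was ATAC-seq, in which a transposase cuts open DNA, on fetal liver cells of stage E14.5 sorted as lineage-negative and c-Kit-positive, which keeps stem cells and progenitors of the blood. The control library (replicate 1) came from CD45.2(+) Brd9fl/fl embryos and the knockout library (replicate 2) from CD45.2(+) Vav1-iCre Brd9fl/fl embryos, both C57BL/6, with 150000 cells per library. Both genotypes carry the floxed Brd9 alleles, and the Cre recombinase, driven in blood cells by Vav1 regulatory DNA, was present in the knockout alone. The BRD9 protein is a bromodomain reader found in one form of the BAF chromatin remodeller, the non-canonical form. Whether Brd9 was deleted was not checked here. There was 1 library per genotype and how many embryos were pooled is unknown here, so every difference below lies between 2 libraries, without a replicate check and without a p-value. Peaks of both lists were merged by 1 bp overlap, and regions were kept that overlapped a listed gene or lay within 50 kb of it, or within 150 kb for Myb and Bcl11a. This gave 100 of 29076 regions, from 6 regions each at Nfe2 and Foxo3 to 17 at Myb.

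In red cell development an erythroid activator network first opens the genes of the red cell, and a second set of factors then silences the embryonic and fetal globin genes. KLF1 activates adult beta-globin and many other erythroid genes, and it also drives the silencers BCL11A and ZBTB7A (also called LRF). BCL11A, ZBTB7A and SOX6 act on the globin clusters, in part through the NuRD complex, to which the remodelling ATPase CHD4 and the methyl-CpG-binding protein MBD2 belong. MYB keeps progenitors dividing, and FOXO3 and GFI1B act as red cells mature.

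Promoter DNA of these genes is shown first, because GATA factors and KLF1 act through short motifs in it. RefSeq windows (GRCm38.p6, the coordinates of mm10) were matched for 8 of the 10 genes, while Nfe2 and Mbd2 are named only. Both strands were searched for AGATAA and TGATAA, which GATA factors recognise, and 5 of these 8 genes had a match in at least 1 window, whereas 18.6% of all 32851 promoter windows did. Sox6 has 6 windows and Chd4 has 2, which raises their chance of a match. In Klf1, Gfi1b, Zbtb7a and Chd4 a GATA match lay within a region accessible in both libraries, that of Chd4 187 bases before its start. As examples, the 250 bases before the start of Klf1 (chr8:84901732-84901981, plus strand) and of Gfi1b (chr2:28621983-28622232, minus strand) are printed, capitals marking the match.
Klf1: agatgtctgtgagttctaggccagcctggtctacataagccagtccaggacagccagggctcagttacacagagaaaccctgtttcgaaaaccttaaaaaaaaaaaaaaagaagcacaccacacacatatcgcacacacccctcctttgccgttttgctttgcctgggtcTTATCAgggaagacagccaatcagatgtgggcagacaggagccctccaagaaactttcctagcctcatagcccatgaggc
Gfi1b: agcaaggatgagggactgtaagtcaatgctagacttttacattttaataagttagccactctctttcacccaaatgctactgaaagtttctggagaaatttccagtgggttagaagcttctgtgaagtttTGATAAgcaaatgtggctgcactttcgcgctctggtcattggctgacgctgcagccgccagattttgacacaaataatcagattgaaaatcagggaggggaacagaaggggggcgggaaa
In Klf1 the match began 80 bases before the start and in Gfi1b 120 bases before it. Zbtb7a, whose 250 bases before the start were 78.0% G and C, held 2 matches, 116 and 39 bases before its start, each shown with the bases around it (30 bases, plus strand, chr10:81136143-81136172 and chr10:81136220-81136249).
Zbtb7a, first site: ggccggggctgtTTATCTgcggcccccacc
Zbtb7a, second site: gctccgggccgtAGATAAgccagcaggctg
CCNCNCCC, the kind of box that KLF1 binds, was found in windows of 7 of the 8 genes, all but Klf1 itself, against 49.5% of all windows. Bcl11a and Zbtb7a held 8 overlapping or separate matches each. No window of the 8 held the NF-E2 motif, found in 0.423% of all windows, or the ETS motif CCGGAAG, found in 8.86%. CCAAT was present in windows of 5 genes (37.4% of all windows) and the E-box CANNTG in those of 6 (72.3%). These matches describe letters and do not show binding.

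The libraries differed in depth. The deposited values allowed the number of reads that cover each peak summit to be recovered, called summit reads below, and the lowest background of the knockout list was 0.640 times that of the control list. A scaled ratio below is the summit reads of the knockout divided by those of the control and by 0.640, given with a 95% exact binomial interval for counting error only. A shared region counted as lower or higher in the knockout when its ratio was past 1.5-fold and the interval left out 1. In the ratio of the deposited folds, each library is divided by its own local background. This ratio was taken only for the shared regions kept around the listed genes, and it is given beside a call that it ends. Calls at the marker genes and at the further regulators below were not checked by folds. Of all 18481 shared regions with a ratio, 5.47% were lower and 3.63% higher by this rule. Of all merged regions, 23.4% stood in the control list alone and 13% in the knockout list alone. The sorted population was checked by peaks at the ends of marker genes. Progenitor genes had such a peak in both lists for 6 of 8 genes, Kit among them with 109 and 65 reads. Within that group Tal1 (214 and 61 reads; 0.445, 0.329 to 0.594) and Lmo2 (62 and 20; 0.504, 0.288 to 0.846) were lower in the knockout, and Spi1 (30 and 38; 1.98, 1.19 to 3.31) was higher. Erythroid genes had one for 7 of 8 in the control and 5 of 8 in the knockout, since Slc4a1 (62 reads) and Hbb-bs (50 reads) stood in the control list alone. Hba-a1, in turn, was higher in the knockout (30 and 35 reads; 1.82, 1.09 to 3.07). Of 6 hepatocyte genes only Apoa1 had one (26 and 19 reads), while Alb, Afp and Ttr had none in either list. Of 6 macrophage genes Mertk alone had one, higher in the knockout (12 and 21 reads; 2.73, 1.28 to 6.09). Of 6 lymphoid genes Ebf1 (33 reads) and Cd4 (9 reads) had one, in the control list alone. Megakaryocyte genes had one for 3 of 5 in the control and 4 of 5 in the knockout, where Itga2b (36 reads) stood alone. Endothelial genes had one for 2 of 5 and 1 of 5, and mast cell genes for 1 of 4 in both. In bulk libraries fewer cells of a type and less open DNA per cell cannot be told apart, and the part of cell makeup in the ratios below was not tested.

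At the genes' own ends all 10 regulators were accessible in both libraries. Within 1 kb of an outer gene end, 12 regions were found, and all 12 were shared (exact 95% interval from 73.5%). Of all gene-end regions of the genome, 82.45% were shared, which lies within that interval. Of the highest region of each gene, none passed 1.5-fold, and the scaled ratios ran from 0.781 at Myb to 1.39 at Sox6, with a median of 1.075. Over all shared gene-end regions of the genome, 3.6% were lower and 3.03% higher. Heights differed far more between genes than between libraries: Zbtb7a had 631 control and 467 knockout summit reads, and Sox6 had 18 and 16.

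**Figure D1:**
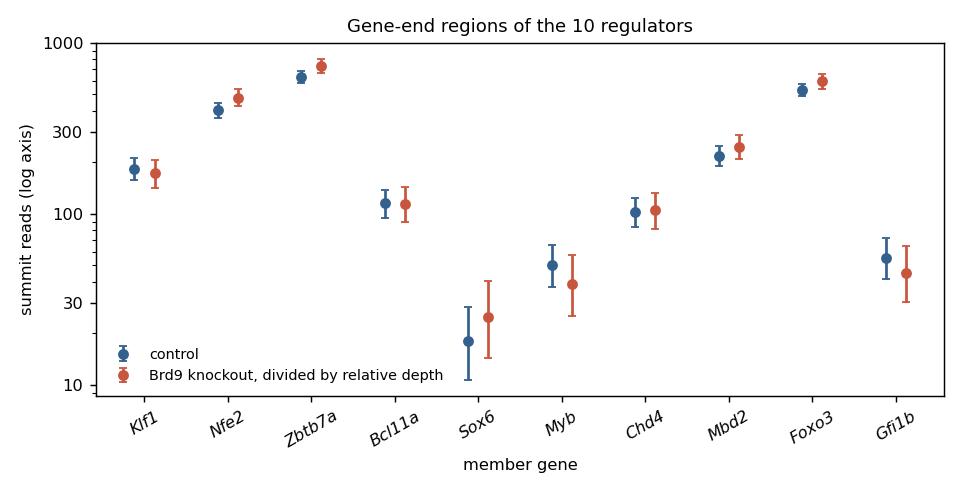
Summit reads at the highest gene-end region of each of the 10 genes on a log axis, with control reads in blue and knockout reads divided by 0.640 in red. Bars are 95% exact Poisson intervals for counting error in 1 library each. The genes spread from 18 control reads at Sox6 to 631 at Zbtb7a, while the paired points of each gene lie close together.

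KLF1 and NF-E2 are the activators of the set. Klf1, the erythroid Krüppel-like factor gene, had an accessible stretch of 2466 bp across its start (chromosome 8, 84901065 to 84903530, mm10). In the control this was 1 peak of 2455 bp with 183 summit reads (157 to 212), its summit 363 bp before the start. The knockout list instead held 2 separate peaks there. The upstream one peaked 252 bp before the start with 66 reads (51.04 to 83.97), and the other peaked 1239 bp after it, inside the gene, with 110 reads (90.4 to 133). Set against the highest knockout peak, the scaled ratio was 0.939 (0.734 to 1.20). Set against the knockout peak that covers the control summit, a choice made after the values were seen, it was 0.563 (0.418 to 0.750). Accessibility just upstream of Klf1 was therefore lower in the knockout library by this second measure, while the first measure compares summits 1602 bp apart. The second measure was not checked by folds, whose ratio of 1.09 belongs to the highest peaks. Klf1 was the only one of the 72 shared regions with more than 1 peak in a list, and such knockout peaks occurred in 86 shared regions of the genome. With that pairing 5.51% of all shared regions were lower, against 5.47% without it. The pairing can change only those 86 regions, so this share is no background for Klf1. It can keep or lower a ratio but not raise it, and the share of lower regions among the 86 was not taken.

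Of the other 10 regions near Klf1, 5 lay at ends of its neighbours and 5 inside them. The region at Dnase2a, a nuclease gene 6.7 kb past the Klf1 start, had 179 and 129 reads (1.125, 0.890 to 1.42), and that at Gcdh had 92 and 76 (1.29, 0.939 to 1.77). Inside Mast1 the control list alone held a pair of regions, of 19 and 18 reads. In Rtbdn a region of 17 reads and in Syce2 one of 8 reads stood in the knockout list alone. By the highest peaks, none of the 7 shared regions of the Klf1 locus passed 1.5-fold with an interval that left out 1.

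Nfe2 encodes the erythroid and megakaryocytic subunit of NF-E2, which binds the globin control regions. Its stronger end region (chromosome 15, 103257945 to 103259007) had 402 control reads (364 to 443) and 306 knockout reads (273 to 342), with the summit at the same base in both. The scaled ratio was 1.19 (1.02 to 1.38), and 8.85% of all shared gene-end regions had an interval above 1. At the other end of the gene (103247177 to 103248609), which also lies by Hnrnpa1, there were 54 and 27 reads (0.781, 0.473 to 1.26). The neighbouring Cbx5 and Hnrnpa1 region with 602 and 384 reads (0.996) and the Copz1 region with 312 and 198 (0.991) were close to 1. A region 46.5 kb outside Nfe2, at no gene, had 50 and 42 reads (1.31, 0.849 to 2.02), and a control-only one 6.6 kb outside had 10.

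Among the silencers, Bcl11a had scaled ratios near 1 at its start and lower ones inside the gene. BCL11A is the zinc-finger repressor of fetal globin genes, and an erythroid enhancer inside the gene is known to be needed for its expression in red cells. The region across the annotated start (chromosome 11, 24080132 to 24081543) had 103 and 66 reads (1.001, 0.723 to 1.38), and the region at the outer end of the gene, 4.2 kb before it, had 115 and 73 (0.991, 0.729 to 1.34). Further in, 3 shared regions followed, all with ratios below 1. The highest of the locus in the control, though not in the knockout, lay 49.2 kb after the start (24129091 to 24130545) and had 136 control reads (114 to 161) and 55 knockout reads (41.4 to 71.6). Its scaled ratio was 0.632 (0.453 to 0.870), lower in the knockout past 1.5-fold, but its deposited folds were 8.15 and 7.76, a ratio of 0.952, which ends the call. The next, at 55.6 kb, had 90 and 44 reads (0.763, 0.520 to 1.11), and the third, at 67.2 kb, had 22 and 8 (0.568, 0.219 to 1.32), and the intervals of these included 1. Their ratios of folds were 1.16 and 0.742. A further region inside the gene, 19984 bp past the start (24100460 to 24101006) stood in the control list alone, with 38 reads (26.9 to 52.2). At equal accessibility the knockout library would be expected to hold 24.3 reads there, and the lowest summit in its list had 6 reads. A knockout-only region at 83.7 kb had 8 reads. Outside the gene the regions were weak: shared ones 26.7 kb (15 and 9 reads) and 131.7 kb (17 and 18 reads) away, and a control-only one of 11 reads. Exons and introns were not separated, since the gene table used here gives outer ends only.

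Zbtb7a, which encodes the second main repressor of fetal globin, had the highest gene-end region of the set (chromosome 10, 81135449 to 81137946). It had 631 control reads (583 to 682) and 467 knockout reads (426 to 511), with the summit 1.2 kb past the start in both. The scaled ratio was 1.16 (1.02 to 1.31). The printed GATA matches lie inside this region. A weak region 7.0 kb before the start had 26 and 11 reads (0.661, 0.295 to 1.38). The 1 region of the locus that was lower past 1.5-fold lay at an end of the neighbouring Eef2, a translation elongation factor gene, with 72 and 28 reads (0.607, 0.378 to 0.952), while the stronger region between Eef2 and Dapk3 had 548 and 323 (0.921, 0.800 to 1.06). Inside Dapk3 a control-only region of 390 bp had 26 reads.

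Sox6 encodes an HMG-box factor that helps BCL11A silence embryonic globin, and its gene spans 569905 bp on chromosome 7. All but 1 of its regions had under 50 reads in each library. The gene-end region (116039453 to 116040447) had 18 control and 16 knockout reads (1.39, 0.662 to 2.88), with summits 522 bp apart. Close to it, 5.4 kb past the outermost start in the promoter table, a region (116033107 to 116034390) had 20 and 25 reads. It lies near an end of Sox6os, an overlapping gene. Its scaled ratio of 1.95 (1.04 to 3.71) made it the only higher region among the 72 by summit reads. By the deposited folds, 4.13 and 4.93, the ratio was 1.19 and the call was lost. Beside it a region with 20 and 23 reads had 1.80 (0.943 to 3.45). Deeper in the gene, by summit reads, 5 of 6 shared regions away from gene ends had ratios below 1, with a median log2 ratio of -0.34. The strongest, 207.6 kb in (115830458 to 115831826), had 123 and 71 reads (0.902, 0.663 to 1.22). By the deposited folds its ratio was 1.20 and that of the region 488.2 kb in was 1.006, while the others of the 6 were below 1. At 96.7 kb there were 49 and 23 reads (0.733, 0.426 to 1.23), and at 86.4 kb 27 and 9 (0.521, 0.215 to 1.14). None of these intervals left out 1. Regions 143538 and 149985 bp in, of 17 and 13 reads, stood only in the control list, and one of 11 reads at 192.8 kb in the knockout list alone.

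**Figure D2:**
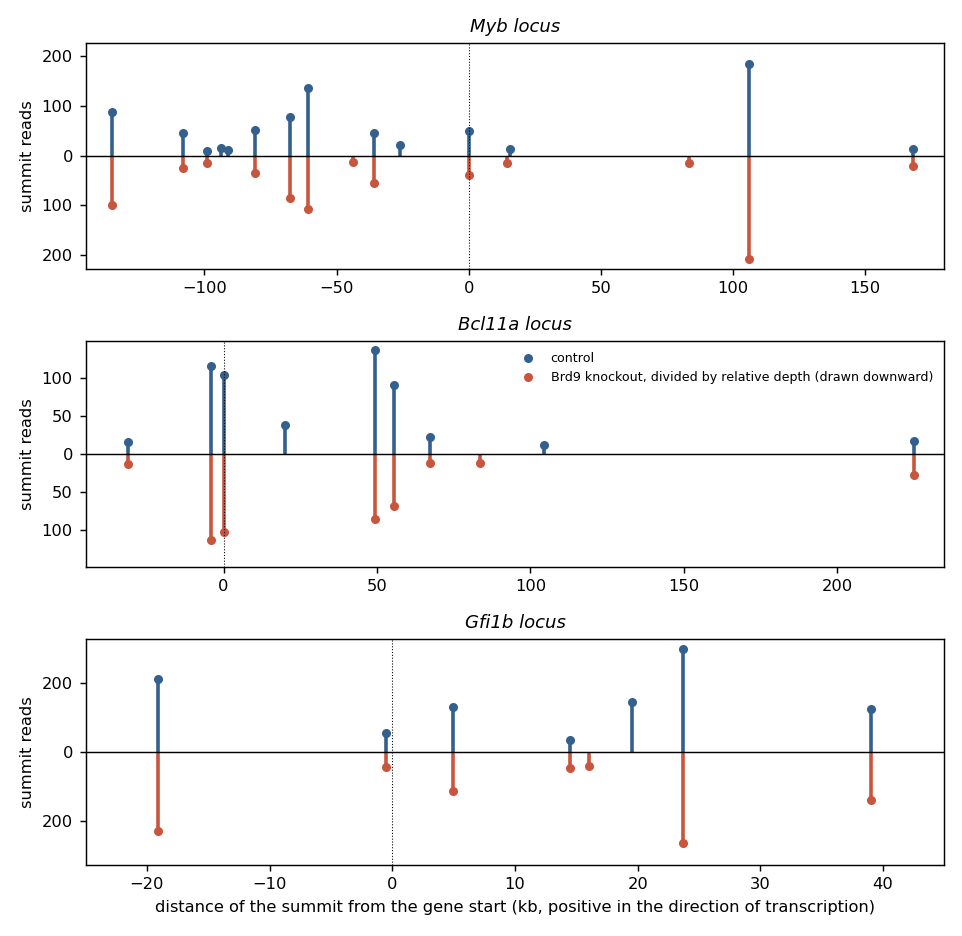
Summit reads of every region at Myb, Bcl11a and Gfi1b by distance of the summit from the gene start, control upward in blue and knockout divided by 0.640 downward in red. A stem with no partner stands in 1 list alone, as does the control stem of 145 reads 19.6 kb past the Gfi1b start.

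Myb was followed out to 150 kb because the stretch between it and its neighbour Hbs1l is known to hold distal enhancers of Myb, on which progenitors depend. At the start of Myb (chromosome 10, 21158564 to 21161655) a wide region of 3092 bp had 50 control and 25 knockout reads (0.781, 0.463 to 1.29). Upstream, 6 shared regions lay between Myb and Hbs1l, 3 with ratios below 1 and 3 above. The intervals of all 6 overlapped, so the values do not show that these regions differed from each other. The region 35.8 kb upstream had 46 and 35 reads (1.19, 0.743 to 1.89). That at 60.6 kb, the strongest of the 6, had 137 and 69 reads (0.786, 0.580 to 1.06), and its neighbour at 67.7 kb had 77 and 55 (1.11, 0.774 to 1.60). At 81.0 kb there were 51 and 22 reads (0.674, 0.389 to 1.13). At 98.9 kb a weak region had 9 and 10 reads (1.735, 0.634 to 4.83). The farthest, at 107.9 kb (21268318 to 21269522), had 46 and 16 reads, and its ratio of 0.543 (0.287 to 0.978) was lower past 1.5-fold, though with an upper bound near 1. The ratio of its deposited folds was 0.746, not past 1.5-fold. The Hbs1l end region had 88 and 64 reads (1.14, 0.810 to 1.59). On the far side of Myb, a region inside Ahi1, 106.0 kb from the Myb start, was the strongest of the locus, with 185 and 133 reads (1.12, 0.892 to 1.41).

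Weak regions in 1 list alone were found in the Myb locus too. The control list alone held 4, from 11 to 22 reads, and the knockout list alone 3, from 8 to 10 reads. Inside Myb a control-only region of 13 reads, 15.7 kb past the start, and a knockout-only one of 10 reads, 14.4 kb past it, lay near each other without overlap. The 1 region above 20 reads, 26.0 kb upstream and 405 bp wide, had 22 reads (13.8 to 33.3) in the control, where 14.1 would be expected in the knockout at equal accessibility.

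Of the NuRD genes, Chd4 had the only locus whose regions were all shared, 10 of 10. Its start region (chromosome 6, 125095192 to 125097424) had 102 and 67 reads (1.03, 0.742 to 1.41), with the same summit base in both lists, and a region inside the gene had 53 and 28 (0.825, 0.503 to 1.33). The region of the set with the lowest ratio lay 14.0 kb upstream of Chd4, inside the neighbouring Lpar5, a lysophosphatidic acid receptor gene (125081531 to 125082428). It had 75 control reads (59.0 to 94.0) and 24 knockout reads (15.4 to 35.7), a scaled ratio of 0.4997 (0.302 to 0.801). Another region inside Lpar5, 24.6 kb upstream, did not share this difference, with 200 and 127 reads (0.992, 0.788 to 1.245). On the other side, regions shared by Nop2 and Iffo1 (87 and 79 reads; 1.42, 1.03 to 1.95) and by Iffo1 and Gapdh (123 and 109; 1.38, 1.06 to 1.81) had intervals above 1 but ratios under 1.5.

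Mbd2 had a compact end region (chromosome 18, 70568032 to 70568565) of 534 bp with 217 control reads (189 to 248) and 158 knockout reads (134 to 185), a scaled ratio of 1.14 (0.920 to 1.40). Just outside the gene, 4.5 kb from it and inside Gm31671, a region had 149 and 69 reads. Its ratio of 0.723 (0.536 to 0.968) was below 1 but within 1.5-fold. A region inside Mbd2 had 60 and 29 reads (0.755, 0.467 to 1.195). Control-only regions on either side had 15 and 17 reads, and a knockout-only one inside the gene had 8.

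FOXO3 and GFI1B serve maturation. Foxo3 encodes a forkhead factor that controls antioxidant genes and mitochondrial clearance in late erythroblasts. Its start region (chromosome 10, 42276349 to 42278341) was among the highest of the set, with 529 control reads (485 to 576) and 381 knockout reads (344 to 421), a scaled ratio of 1.125 (0.983 to 1.29). By summit reads, ratios were below 1 at its other 3 shared regions. Upstream of the gene, 20.1 kb before the start and at no other gene (42296252 to 42297336), a region had 108 control reads (88.6 to 130) and 36 knockout reads (25.2 to 49.8). Its ratio of 0.521 (0.347 to 0.766) was lower past 1.5-fold, but its deposited folds of 12.1 and 9.53 gave 0.786, which ends the call. Inside the gene, 11.4 kb past the start, there were 40 and 14 reads (0.547, 0.275 to 1.03), and at 32.1 kb 67 and 38 (0.886, 0.579 to 1.34). By folds these 2 ratios were 0.699 and 1.08. A region of 391 bp at 29.3 kb (42247245 to 42247635) had 50 reads (37.1 to 65.9) in the control list and none listed in the knockout, where 32.0 would be expected at equal accessibility.

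Gfi1b encodes a zinc-finger repressor needed for red cells and platelets, and its expression in blood cells is known to depend on elements downstream of the gene. At the start (chromosome 2, 28621763 to 28622743), which holds the printed promoter, there were 55 control and 29 knockout reads (0.823, 0.506 to 1.31), with summits 468 bp apart. The ratio of its deposited folds was 0.618, past 1.5-fold lower. Inside the gene, 4.9 kb past the start, a region had 129 and 72 reads (0.872, 0.644 to 1.17). Downstream, the libraries differed in which sites were listed. The region 23.7 kb past the start (28597635 to 28598485) was strong in both, with 299 and 169 reads (0.883, 0.727 to 1.07). A region at 19.6 kb (28602082 to 28602631) had 145 reads (122 to 171) in the control and was absent from the knockout list, although 92.9 reads would be expected there at equal accessibility. At 16.1 kb (28605589 to 28606034) the knockout list alone held a region, with 26 reads (16.98 to 38.1), where 40.6 would be expected in the control. At 14499 bp a shared region had 34 and 30 reads (1.38, 0.815 to 2.32).

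The Gfi1b site of 145 reads was unusual in its summit reads among sites in 1 list alone. Of 6814 control-only regions, 12 had as many reads, itself included (0.176%), and the median over all 6814 was 14.0. Its deposited fold over local background was 3.942. Among the control-only regions of at least 20 reads, folds were higher at Foxo3 (5.534), Bcl11a (8.004) and Myb (6.501) and lower in Dapk3 (2.048). The rank of the Gfi1b site by fold was not taken. Of 3548 regions with 100 to 199 control reads, 0.902% were absent from the knockout list. This site was 550 bp wide, and of 202 control peaks of like reads with widths of 450 to 650 bp, a range chosen after the values were seen, 7.92% were absent. The shortest peak in either list had 376 bp. Whether width bears on its absence from the knockout list was not tested.

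**Figure D3:**
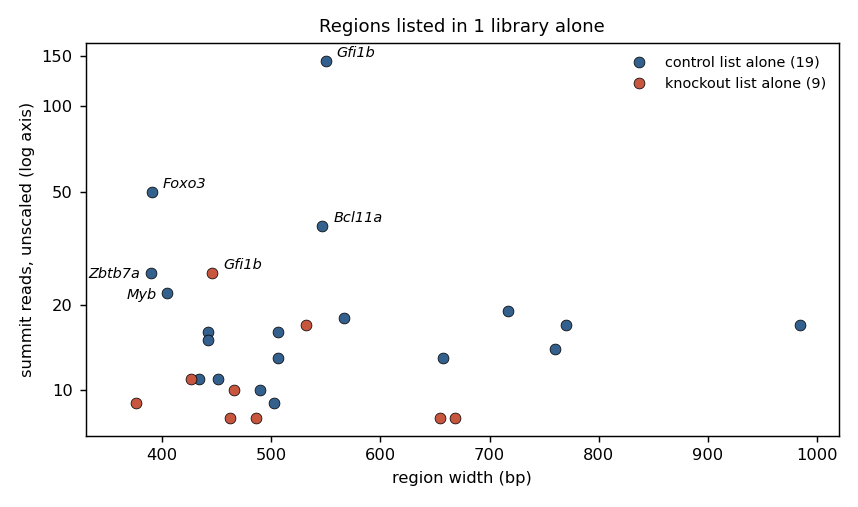
Summit reads, unscaled on a log axis, against width for the 28 regions in 1 list alone, the control list in blue (19 regions) and the knockout list in red (9 regions). Gene names mark the 6 regions with at least 20 reads, and the Gfi1b site at 145 reads and 550 bp stands far above the others.

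Over the 10 loci, 72 regions were shared, 19 of the 100 stood in the control list alone (exact 95% interval 11.8 to 28.1%) and 9 in the knockout list alone (4.20 to 16.4%). These shares were near those of all regions, 23.4% and 13%. Most of the 28 were weak: 14 of the 19 control-only and 8 of the 9 knockout-only regions had under 20 reads. Apart from those at Gfi1b, Foxo3, Bcl11a and Myb, the Dapk3 region of 26 reads was the only other control-only region at or above 20. Its deposited −log10 q was 1.65, close to the lowest of the control list, 1.31. Of all regions with 20 to 99 control reads, 16.5% were absent from the knockout list, and of those with 20 to 99 knockout reads 2.26% were absent from the control list. The knockout library was the shallower.

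Of the 72 shared regions, 5 were lower in the knockout (6.94%) and 1 was higher (1.39%), against 5.47% and 3.63% of all shared regions, so the set was near the background. The median log2 ratio was -0.01, as over all shared regions (0.00), with 38 ratios below 1 and 34 above. The 5 lower regions lay inside Bcl11a, upstream of Myb, upstream of Foxo3, inside Lpar5 near Chd4 and at Eef2 near Zbtb7a. Of these, 4 lay away from gene ends, where 10.3% of the set (4 of 39) and 7.96% of all such regions were lower. None of the 39 was higher, against 4.43% of all such regions. As gene ends are outer ends, the 39 include the Bcl11a region across its annotated start. By the deposited folds 2 of the 5, Eef2 and Lpar5, were past 1.5-fold. No gene-end region of the 10 genes themselves was lower by the summit reads of the highest peaks, while by folds that of Gfi1b was.

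**Figure D4:**
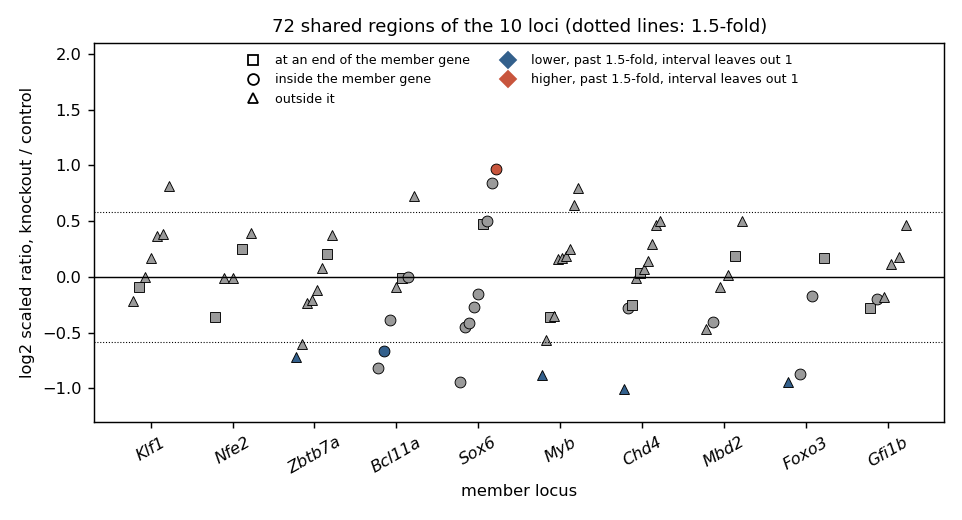
Log2 scaled ratio of each of the 72 shared regions by locus, with squares at an end of the named gene, circles inside it and triangles outside it. The 5 lower regions are blue and the 1 higher region, in Sox6, is red, and dotted lines mark 1.5-fold. Squares stay within the dotted lines.

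Ratios inside the genes depended on the measure. By summit reads, inside the genes but away from gene ends, 13 of 15 shared regions had a ratio below 1, with a median log2 ratio of -0.39. These came from Sox6 (6 regions), Bcl11a, Foxo3, Chd4, Mbd2 and Gfi1b, and this group was formed after the values were seen. Gene ends here are outer ends, so the 15 include the Bcl11a region across its annotated start (1.001). By the deposited folds, 10 of the 15 were below 1, with a median log2 ratio of -0.11. By summit reads over the genome, 54.8% of the 5626 shared gene-body regions were below 1, with a median log2 ratio of -0.06. Folds were not taken over the genome, so the fold values have no such background. Outside the genes and away from gene ends, 12 of the set's 24 shared regions were below 1 and 12 above. Only the Bcl11a region at 49.2 kb among the 15 had an interval that left out 1, and regions of a gene share a locus and are not independent.

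Shared regions of the set had a median width of 1060 bp, with 75 control and 42 knockout reads, against 962 bp and 61.5 and 37 reads over all shared regions. Summits of both libraries lay a median of 45.5 bp apart (51 bp over all). In 9 of the 72 they were over 200 bp apart, so that the reads were taken at different places; the gene-end regions of Klf1, Bcl11a, Sox6 and Gfi1b were among them, and none of the 5 lower regions or the higher one was.

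Other genes of the pathway were examined at their ends. Of 15 NuRD and corepressor partners, 12 had a shared gene-end region, 4 with a ratio below 1 and 8 above, and none passed 1.5-fold with an interval that left out 1. Hdac2, a histone deacetylase of NuRD, came nearest, with 257 and 240 reads (1.46, 1.22 to 1.75). Hdac1 had 227 and 168 (1.16, 0.941 to 1.42) and Mbd3 451 and 329 (1.14, 0.985 to 1.32). Chd3, Mta1 and Cdk2ap1 had no region within 1 kb of an outer end in either list.

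The list of 20 further regulators was chosen with earlier results of these data known, so its shares are no independent comparison with the genome. Of the 20, 16 had a shared gene-end region, 3 below 1 and 13 above. Folds were not compared here, and by summit reads 3 of the 16 were higher past 1.5-fold, against 3.03% of all shared gene-end regions. These were Wiz, a zinc-finger partner of the G9a and GLP methyltransferases (39 and 69 reads; 2.76, 1.84 to 4.20), Ehmt1, which encodes GLP (36 and 56; 2.43, 1.57 to 3.802), and E2f4, a cell cycle repressor active in erythroid cells (31 and 38; 1.91, 1.16 to 3.18). Ehmt2, which encodes G9a, the partner of GLP, had 77 and 42 reads (0.852, 0.571 to 1.26). Bach1, a heme-sensing repressor, had 193 and 100 (0.809, 0.629 to 1.04), and Klf3 228 and 159 (1.09, 0.884 to 1.34). Lin28b, a fetal program gene, had 54 and 38 (1.10, 0.706 to 1.695). Dnmt1, Pogz, Nfia and Usp7 had no such region in either library. No gene of these groups had a gene-end peak in 1 library alone.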

How the data were processed

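Per the submitters' processing notes, the tools were MACS2 2.2.7.1, Bowtie2 2.4.4 and Trimmomatic 0.39, besides Picard 2.26.2 and deepTools 3.5.1, with the mm10 build; their settings, any transposase shift, duplicate handling and blacklist are not given in the sources used here. Peaks were deposited per sample. The deposited score is about 10 times the −log10 q and was not used. The deposited fold is a ratio of summit pileup to local background, each plus 1, and the −log10 p-value and the −log10 q-value were deposited by the authors.

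From fold and −log10 p, a whole number of summit reads was solved for 99.99% of peaks in both lists. The others, and further peaks above 3000 reads (5 in each list), were left out of ratios. On simulated peaks 100.0% of 2000 were recovered for each list. Relative depth is the ratio of the lowest backgrounds, 0.971 over 1.52 reads, assuming that reads were extended alike; total depth is unknown. Regions took the highest peak of each list. Intervals were exact Poisson, Clopper-Pearson or conditional binomial. Without molecular identifiers reads may share a source molecule, so the intervals cover counting error only.

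Genes came from RefSeq GRCm38.p6 by outer ends; start sites came from its promoter table. All 10 members are named, with their end regions, their strongest regions, regions of at least 20 reads in 1 list alone, and regions past 1.5-fold. Of pathway lists, genes past 1.5-fold were named by rule, and others with them after their values were seen. Members and lists were chosen with earlier results of these data known. Scripts ran in Python 3.11.15 with pandas 2.3.3, SciPy 1.17.1, matplotlib 3.10.9 and NumPy 2.4.6. Alternatives were a −log10 q of at least 5, a stricter overlap, other distances, equal numbers of peaks, another depth scale and the deposited folds.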

Additional observations from a re-analysis of the deposited data

How the results depend on the processing

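Loci limited to 10 kb held 37 shared, 8 control-only and 5 knockout-only regions, and 1 lower region in place of 5. The lower region left was that inside Bcl11a, while the others lay 13.6 to 107.3 kb from the listed genes. Keeping peaks whose −log10 q reached 5 left 4 knockout-only regions of 9, and requiring that the overlap cover at least 50% of each peak raised them to 17. The ratio of deposited folds, with no interval, gave 2 higher regions in place of 1, in Mast1 near Klf1 (1.55) and 14499 bp past the Gfi1b start (1.59), and the Sox6 region (1.19) was not among them. It gave 4 lower regions in place of 5, of which Eef2 (0.617) and Lpar5 (0.654) were in both sets. The same share by folds over all shared regions was not taken, so these counts have no background here. The regions at Bcl11a (0.952), Foxo3 (0.786) and Myb (0.746) were lost, and Sox6 at 86.4 kb (0.539) and the Gfi1b gene end (0.618) were added. So 4 of the 6 calls depend on the choice between summit reads and folds; the cause was not tested. The knockout peak covering the control summit, an alternative chosen after seeing the data, moved Klf1 from 0.939 to 0.563 and the lower regions from 5 to 6. That move was not checked by folds. A depth of 0.652 from strong shared regions put 40 of the 72 ratios below 1 in place of 38. The other settings kept each count within 1.5 times, which does not show that the regions were the same. With 1 library per genotype no library could be left out. No paired analysis was possible because the libraries share no replicate number. Regions with few reads have wide intervals, as at the Sox6 end (0.662 to 2.88).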

Other observations

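The loci also held promoters and ends of genes outside the regulator set, and those named here were picked after their values were seen. Of 21 regions at ends of other genes and outside the 10 genes, 19 were shared (90.5%) and 2 stood in the control list alone (9.52%). Of all gene-end regions, 82.45% were shared and 11.16% stood in the control list alone, so these shares were near the background. Their median scaled ratio was 1.09, with 7 below 1 and 12 above. Map2k2, a MAP kinase kinase gene, had 360 and 244 reads (1.06, 0.896 to 1.249). Gapdh and Ncapd2, a glycolysis and a condensin gene, shared a region of 259 and 174 reads (1.05, 0.861 to 1.28). Tsc1, an inhibitor of mTOR signalling, had 210 and 146 (1.09, 0.873 to 1.35), and Pias4, a SUMO ligase gene, 222 and 123 (0.865, 0.688 to 1.08). Of the 19, Eef2 alone was past 1.5-fold (5.26%, lower), against 3.6% lower and 3.03% higher of all shared gene-end regions.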
